A study of Danio rerio with 54 samples.

Results

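The comparison described here sets zebrafish retinas taken after 72 hours of damaging light (72 hpl, hours post-light) against retinas taken from the dark just before the light was switched on (0 h). It holds 12 of the 54 samples of the series, 6 retinas at 72 hpl and 6 at 0 h, each from a single fish, and the 12 were chosen by their time label alone. All fish were adult albino zebrafish, 6 to 9 months old, kept in a dark box for 5 days. The 72 hpl fish then received 30 minutes of light at about 100000 lux and stayed under about 10000 lux until their retinas were removed, so these retinas came straight from 3 days of constant light. The 0 h fish received neither light. Because the 0 h group stands in for undamaged tissue but was also in prolonged darkness, light itself, injury and elapsed time cannot be told apart in this comparison. Replicates 1 to 3 of each group belonged to one experiment and replicates 4 to 6 to a second one, as the names in the study's list of read files show.

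Intense light kills rods and cones in albino zebrafish. Unlike mammals, the fish replaces them: Müller glia, the radial glia that span the retina, become reactive, re-enter the cell cycle and divide to give neuronal progenitors, which multiply, migrate outward and differentiate into new photoreceptors. Microglia and macrophages clear the debris meanwhile. The third day after light onset is known as a time of dividing progenitors, when the old photoreceptors are largely gone and new ones have yet to mature.

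Transcripts were measured by 3′ mRNA sequencing, which reads 1 tag from the end of each transcript, so a level is given as CPM, the gene's share of all counted reads scaled to a common total, with no correction for length. A change is the log2 fold change of 72 hpl over 0 h, so positive means higher at 72 hpl, with its standard error (SE). Each adjusted p comes from edgeR's quasi-likelihood test with Benjamini-Hochberg correction across the 13075 genes tested, and a gene was called at an adjusted p under 0.05. For single genes the range and median of the 6 retinas at each time are given.

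The 72 hpl libraries held 1694387 to 2541614 counted reads and the 0 h libraries 1111503 to 1906743. Genes with at least 1 read numbered 13711 to 13876 in the retinas of experiment 1 and 12342 to 13133 in those of experiment 2. Log2 levels correlated across genes at 0.922 to 0.968 between pairs of 72 hpl retinas, at 0.903 to 0.961 between pairs of 0 h retinas and at 0.812 to 0.879 between a 72 hpl and a 0 h retina. Of the 13075 genes, 2971 were higher at 72 hpl (22.7%) and 2643 lower (20.2%), while 7461 were not called. The 6 retinas of each time did not overlap for 1657 genes that were higher at 72 hpl (12.7%) and for 1098 that were lower (8.4%). Large changes were common: 1629 called genes were at least 2-fold higher and 1447 at least 2-fold lower, and 61 and 47 passed 16-fold. The median gene changed by −0.04 on the log2 scale. With 0 h replicate 5, whose summed levels of opsin and of cone phototransduction genes were the highest of the 0 h retinas, left out, 2915 genes were higher and 2630 lower. Replicate 6 of 0 h had the fewest reads, and without it the counts were 2809 and 2456. These are whole retinas, so for any cell type fewer cells and less RNA per cell cannot be told apart.

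**Figure D1:**
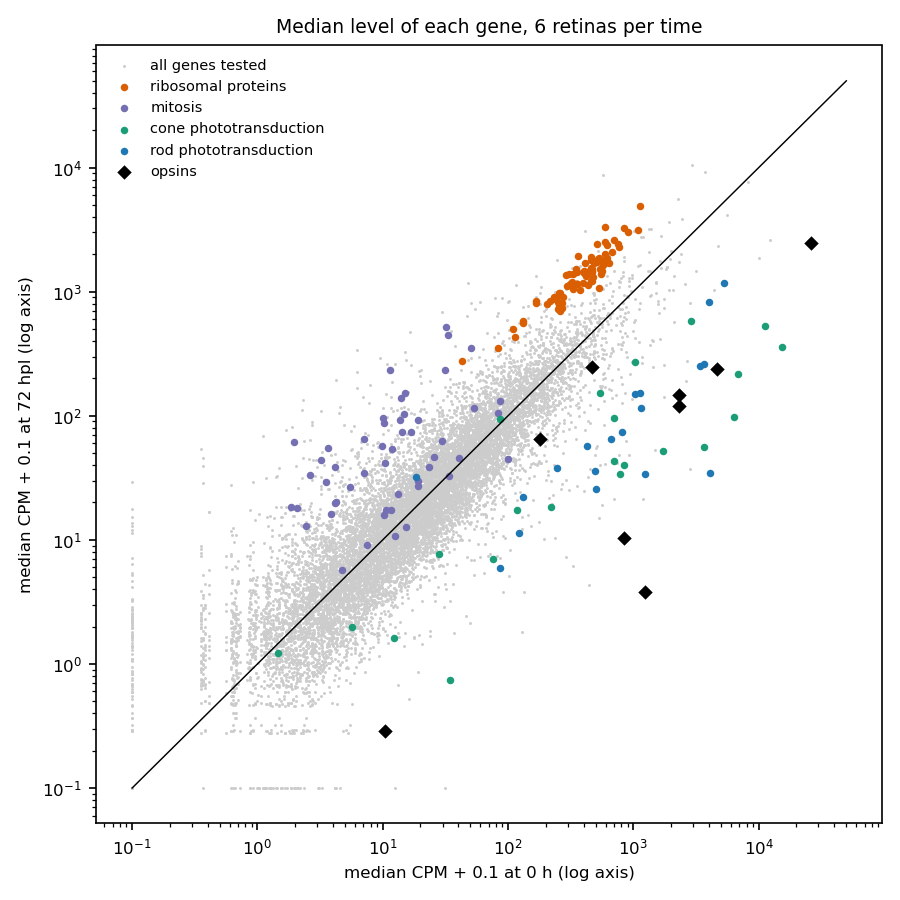
Median CPM of each of the 13075 genes at 72 hpl (vertical, log axis, 0.1 CPM added) against 0 h (horizontal, same scale), 6 retinas per median, with 5 gene lists marked. The 9 opsins and most phototransduction genes lie below the diagonal, the 81 cytosolic ribosomal protein genes lie together above it, with a median log2 fold change of 1.70, and most mitosis genes lie above it at lower levels, with a median of 2.13.

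The steepest rises included genes that were almost silent in the dark-adapted retina. The progranulin gene grn2, whose family encodes secreted growth factors of macrophages, held 14.4 to 94.2 CPM at 72 hpl with a median of 29.2, against 0 to 0.569 CPM at 0 h with a median of 0. Only 2 reads of it were counted in the 6 libraries at 0 h, against 557 at 72 hpl, a ratio of 200 with a 95% counting interval of 55.1 to 1656 (exact binomial, counting error only). The thymidylate synthase gene tyms, which makes the thymine nucleotide for DNA, held 53.6 to 89.3 CPM at 72 hpl with a median of 69.1, against 0.569 to 3.73 CPM at 0 h with a median of 1 (log2 fold change 5.40, SE 0.33, adjusted p = 4.0e-20). The progenitor factor foxn4, needed for amacrine and horizontal cell genesis in the mouse, held 219 to 376 CPM at 72 hpl with a median of 340.4, against 4.34 to 18 CPM at 0 h with a median of 6.16 (log2 fold change 5.32, SE 0.30, adjusted p = 2.0e-21). For atoh7, the factor that makes progenitors competent to become ganglion cells, the values were 28.1 to 59.9 CPM at 72 hpl with a median of 37.8, against 0 to 2.05 CPM at 0 h with a median of 1.4 (log2 fold change 5.09, SE 0.53, adjusted p = 7.7e-12). For tyms, foxn4 and atoh7 no 0 h retina reached the lowest 72 hpl retina, which the ranking of steepest rises required of its genes. That ranking took called genes with a mean of at least 20 CPM in a group and no overlap between the groups, clone names left out. Its 12 steepest rises also held the stress and growth-arrest gene gadd45gb.1 (5.97 on the log2 scale) and the thymosin gene tmsb, which encodes an actin-binding peptide (5.89). They further held the cell division gene cdca7a (5.66), the calcium-binding s100a1 (5.50) and ercc6l, which encodes a helicase of mitotic chromosomes (5.10). The others were the chaperone hsp70.3 (5.51), described below, the cyclin-dependent kinase subunit cks2 (4.96) and the hairy-related repressor hes2.2 (4.89). Adjusted p of these genes lay between 5.4e-23 and 2.3e-12. Few reads at 0 h made some of these values imprecise: grn2 came to 7.78 without 0 h replicate 1 and 7.79 without 0 h replicate 3, s100a1 to 6.15 without 0 h replicate 1, gadd45gb.1 to 6.62 without 0 h replicate 6 and cdca7a to 6.34 without 0 h replicate 2.

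By amount of transcript, other genes led. The brain-type fatty acid binding protein fabp7a, a marker of radial glia and neural progenitors, held 6783 to 11099 CPM at 72 hpl with a median of 8638, against 357 to 891 CPM at 0 h with a median of 571 (log2 fold change 3.88, SE 0.21, adjusted p = 4.3e-22), the largest gain in CPM of any called gene. The cytosolic chaperone hsp90ab1 held 9637 to 13250 CPM at 72 hpl with a median of 10398, against 2754 to 3225 CPM at 0 h with a median of 2956 and hsp90aa1.2 held 6939 to 12998 CPM at 72 hpl with a median of 9268, against 2691 to 4741 CPM at 0 h with a median of 3703. Both chaperones separated the groups completely. The actin-sequestering tmsb4x held 4218 to 7304 CPM at 72 hpl with a median of 5553, against 2188 to 2672 CPM at 0 h with a median of 2290. The other large gains were the ribosomal stalk proteins rplp1 and rplp2l (2.05 and 2.45).

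The largest losses were photoreceptor transcripts. The rod pigment gene rho held 1493 to 3020 CPM at 72 hpl with a median of 2475, against 20977 to 37802 CPM at 0 h with a median of 26355 (log2 fold change −3.61, SE 0.20, adjusted p = 4.4e-22), and the cone transducin beta gene gnb3b held 244 to 561 CPM at 72 hpl with a median of 361, against 13213 to 19725 CPM at 0 h with a median of 15411 (log2 fold change −5.38, SE 0.20, adjusted p = 3.1e-29). At 0 h these had the highest median levels of all genes, and neither overlapped between the groups. The phosphodiesterase genes pde6h (cone gamma subunit), pde6g (rod gamma subunit) and pde6c (cone catalytic subunit) changed by −4.75, −2.34 and −4.90. The retinol-binding protein gene rbp4l held 1133 to 2840 CPM at 72 hpl with a median of 1863, against 7553 to 17921 CPM at 0 h with a median of 10080. Outside the cascade, the steepest falls included es1, which encodes a mitochondrial protein of cones in zebrafish (15.8 to 78 CPM at 72 hpl with a median of 36.9, against 2189 to 3568 CPM at 0 h with a median of 2828), the neuronal calcium sensor ncaldb (−5.83), the keratan sulfate proteoglycan gene kera (3.21 to 8.08 CPM at 72 hpl with a median of 6, against 236 to 569 CPM at 0 h with a median of 328) and the insulin family gene insb (−6.36, or −7.63 without 72 hpl replicate 4, with medians of 0 CPM at 72 hpl and 31.1 CPM at 0 h).

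All 9 visual opsins were lower at 72 hpl, with log2 fold changes between −8.33 and −1.07. The UV opsin opn1sw1 held 103 to 308 CPM at 72 hpl with a median of 237, against 3316 to 9174 CPM at 0 h with a median of 4632 (log2 fold change −4.55, SE 0.28, adjusted p = 8.0e-20). The blue opsin opn1sw2 held 104 to 133 CPM at 72 hpl with a median of 119.7, against 1831 to 3873 CPM at 0 h with a median of 2313 (log2 fold change −4.33, SE 0.23, adjusted p = 2.2e-22). Each had groups that did not overlap. The 4 green opsins, tandem copies of 1 ancestral gene, spanned the whole range of change. The copy opn1mw2 held 0 to 11.7 CPM at 72 hpl with a median of 3.72, against 608 to 3283 CPM at 0 h with a median of 1238 (log2 fold change −8.33, SE 0.58, adjusted p = 6.7e-18), and opn1mw3 held 4.81 to 41.4 CPM at 72 hpl with a median of 10.2, against 340.4 to 1351 CPM at 0 h with a median of 839 (log2 fold change −5.75, SE 0.40, adjusted p = 5.5e-18). Copy opn1mw1 was scarce at both times, with 0 to 1.44 CPM at 72 hpl with a median of 0.189, against 1.86 to 105 CPM at 0 h with a median of 10.3 (log2 fold change −6.21, SE 1.1, adjusted p = 5.3e-06), and its value was −7.30 without 72 hpl replicate 1 and −5.30 without 0 h replicate 3. That of opn1mw3 was −6.34 without 72 hpl replicate 1. In contrast opn1mw4 held 87.9 to 365 CPM at 72 hpl with a median of 248, against 280.0 to 578 CPM at 0 h with a median of 467 (log2 fold change −1.07, SE 0.24, adjusted p = 2.3e-04), the smallest change of any opsin and the one whose groups overlapped. Of the red opsins, opn1lw1 held 89.3 to 229 CPM at 72 hpl with a median of 148, against 1844 to 3522 CPM at 0 h with a median of 2322 (log2 fold change −4.04, SE 0.26, adjusted p = 1.6e-19) and opn1lw2 held 34.1 to 94.3 CPM at 72 hpl with a median of 64.8, against 108 to 375 CPM at 0 h with a median of 178 (log2 fold change −1.54, SE 0.39, adjusted p = 0.0011). Reads of near-identical opsin copies may be shared in counting, so the split between copies is uncertain. By experiment, opn1mw4 changed by −1.76 in experiment 1 and −0.54 in experiment 2. In rho the changes were −3.68 and −3.61 in the same order.

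**Figure D2:**
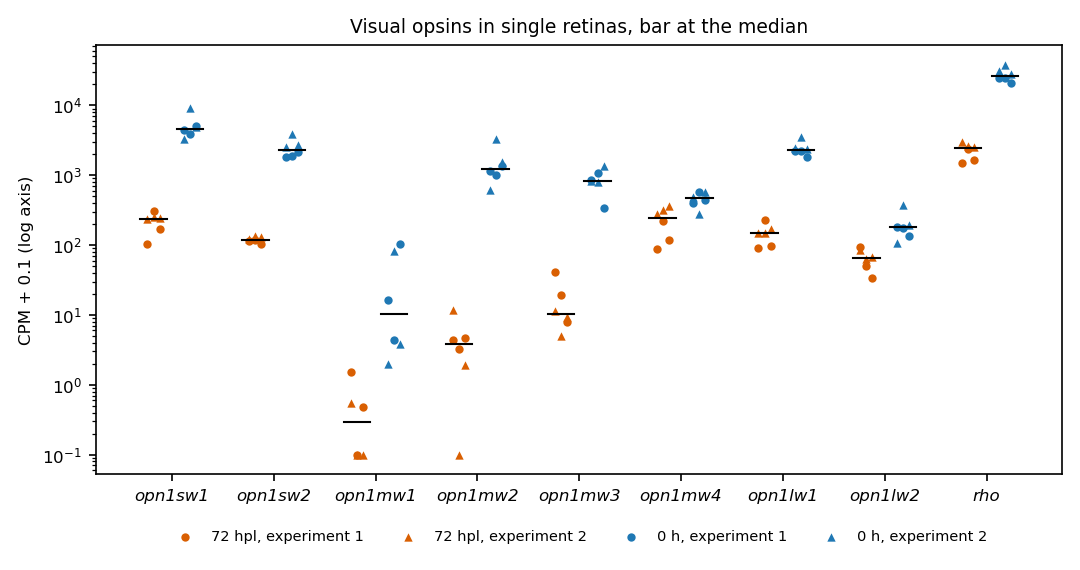
CPM (log axis, 0.1 added) of the 9 visual opsin genes in each retina, 72 hpl left of 0 h within each gene, circles for experiment 1 and triangles for experiment 2, with a bar at the median of the 6. Every opsin but opn1mw4 has its 72 hpl retinas wholly below its 0 h retinas, and opn1mw4 has medians of 248 CPM at 72 hpl and 467 CPM at 0 h.

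Most genes of the cascade that turns light into an electrical signal were lower, on the rod list and on the cone list. Of 19 rod phototransduction genes, 18 were lower and 1 higher (median log2 fold change −3.36), and of 22 cone genes, 20 were lower and 0 higher (median −3.61). Phosducin pdcb, which binds transducin beta-gamma, held 24.4 to 59.1 CPM at 72 hpl with a median of 34.3, against 3749 to 5179 CPM at 0 h with a median of 4064 (log2 fold change −6.80, SE 0.19, adjusted p = 2.7e-34). Its partner copy pdca changed by −5.14, the calcium sensor rcvrna by −3.37 and the rod transducin gamma gene gngt1 by −3.93. The rod arrestin gene sagb held 37.1 to 102 CPM at 72 hpl with a median of 56.7, against 322 to 1001 CPM at 0 h with a median of 426. The opsin kinase gene grk1b, whose split between rods and cones was not tested, held 0 to 9.72 CPM at 72 hpl with a median of 4.22, against 349 to 521 CPM at 0 h with a median of 442. Among the cone genes, the transducin alpha gene gnat2 held 88.4 to 176 CPM at 72 hpl with a median of 96.8, against 5806 to 6937 CPM at 0 h with a median of 6404 (log2 fold change −5.84, SE 0.21, adjusted p = 3.1e-29). The gamma gene gngt2b held 42.4 to 101 CPM at 72 hpl with a median of 55.5, against 2575 to 6826 CPM at 0 h with a median of 3692 (log2 fold change −6.07, SE 0.31, adjusted p = 4.0e-23). The phosphodiesterase gene pde6c held 166 to 313 CPM at 72 hpl with a median of 218, against 5988 to 7789 CPM at 0 h with a median of 6780, and the guanylate cyclase gene gc3 and the calcium sensor guca1d changed by −4.13 and −5.57. The exception was guca1a, a guanylate cyclase activator listed with the rod genes, which held 28 to 67.3 CPM at 72 hpl with a median of 31.7, against 5.58 to 23.6 CPM at 0 h with a median of 18.3 (log2 fold change 1.30, SE 0.39, adjusted p = 0.0049) and was higher in every 72 hpl retina. Its change was 0.64 in experiment 1, where it was not called alone, and 1.83 in experiment 2. Together the opsin and phototransduction lists took 0.7 to 1.06% (median 0.984%) of the counted reads at 72 hpl, against 11.8 to 14.7% (median 12.4%) at 0 h.

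Genes of the outer segment, the stack of membrane discs that carries the opsins, and of the ribbon synapse, where photoreceptors release glutamate, were lower too. Of 13 outer segment genes 11 were lower and 0 higher. The disc rim genes rom1b, prph2b and prph2a changed by −3.72, −4.69 and −4.30, and the actin bundler fscn2b by −3.73 (adjusted p at most 4.1e-25). Of 15 synaptic genes 11 were lower and 0 higher, with a smaller median of −0.89. The complexin cplx4c, which regulates vesicle fusion at ribbon synapses, held 4.88 to 15.1 CPM at 72 hpl with a median of 10.2, against 211 to 278 CPM at 0 h with a median of 235 (log2 fold change −4.53, SE 0.20, adjusted p = 6.3e-26). Its relatives cplx4a and cplx4b changed by −2.60 and −5.07. For cabp4, a calcium-binding protein of the photoreceptor terminal, the values were 8.53 to 23.7 CPM at 72 hpl with a median of 19.4, against 185 to 294 CPM at 0 h with a median of 223 (log2 fold change −3.63, SE 0.18, adjusted p = 5.9e-24).

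Of 20 retinoid cycle genes, which supply retinal to the opsins, 5 were higher and 5 lower, shares near those of all genes (22.7% and 20.2%). Lower were the interphotoreceptor carrier irbp (−2.73), the outer segment retinol dehydrogenases rdh8b (−4.52) and rdh8a (−0.96), and rbp4l. Higher were rpe65a, the isomerase of the pigment epithelium, with 446 to 1319 CPM at 72 hpl with a median of 783, against 219 to 565 CPM at 0 h with a median of 315 (log2 fold change 1.14, SE 0.32, adjusted p = 0.0028), whose groups overlapped, and rlbp1a, which encodes a retinal carrier, with 749 to 1072 CPM at 72 hpl with a median of 983, against 411 to 554 CPM at 0 h with a median of 480.1 (log2 fold change 1.01, SE 0.19, adjusted p = 1.7e-05). The cell type behind the rlbp1a value was not tested. The acyltransferase lrata and the dehydrogenase dhrs9 changed by 1.37 and 1.53.

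Of 20 transcription factors of photoreceptor development 10 were higher (50%, against 22.7% of all genes) and 4 lower (20%, near the 20.2% of all genes), with a median of 0.37. The zinc-finger factor prdm1a, which steers precursors toward photoreceptor fate in the mouse, held 234 to 298 CPM at 72 hpl with a median of 260.0, against 9.92 to 19.4 CPM at 0 h with a median of 12.5 (log2 fold change 4.21, SE 0.20, adjusted p = 5.6e-25). The neurogenic factor neurod4 held 497 to 751 CPM at 72 hpl with a median of 609, against 174 to 248 CPM at 0 h with a median of 218 (log2 fold change 1.48, SE 0.12, adjusted p = 2.2e-15) and otx2, the homeobox factor at the head of photoreceptor specification, held 142 to 188 CPM at 72 hpl with a median of 170.1, against 59.8 to 80.3 CPM at 0 h with a median of 67.4 (log2 fold change 1.29, SE 0.16, adjusted p = 2.0e-09). All 3 separated the groups. The rod factor nr2e3, which in mice represses cone genes, held 29.5 to 68.9 CPM at 72 hpl with a median of 51.2, against 12.4 to 21.2 CPM at 0 h with a median of 18.3 (log2 fold change 1.45, SE 0.20, adjusted p = 1.7e-08), whereas the rod determinant nrl held 0 to 8.94 CPM at 72 hpl with a median of 2.06, against 0.93 to 41.6 CPM at 0 h with a median of 13.6 (log2 fold change −2.27, SE 0.57, adjusted p = 9.3e-04), with overlapping groups and changes of −2.67 in experiment 1 and −0.36 in experiment 2. In experiment 1 nrl held 2.52 to 8.94 CPM at 72 hpl and 25.9 to 41.6 CPM at 0 h. In experiment 2 it was scarce at both times, with 0 to 1.6 CPM at 72 hpl and 0.93 to 1.24 CPM at 0 h. The fall of nrl was thus seen in experiment 1 only. The homeobox factor crx held 655 to 899 CPM at 72 hpl with a median of 813, against 1004 to 1386 CPM at 0 h with a median of 1122 (log2 fold change −0.51, SE 0.10, adjusted p = 1.5e-05), and the Mef2 factors mef2ca and mef2cb changed by −2.67 and −1.71. Among 27 eye field homeobox factors 10 were higher and 4 lower. The higher ones included six6b (0.91) and nr2e1 (1.38), and the lower ones rx1 (104 to 160.5 CPM at 72 hpl with a median of 132, against 429.8 to 854 CPM at 0 h with a median of 579.7) and rx2 (−1.76).

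Of 28 genes listed for Müller glia homeostasis 10 were higher (35.7%, against 22.7% of all genes) and 7 lower (25%, against 20.2%). The list holds gfap and vim, which are on the gliosis list too. The filament gene gfap, the classic sign of a reactive glial cell, held 189 to 258 CPM at 72 hpl with a median of 208, against 7.44 to 22.4 CPM at 0 h with a median of 19.8 (log2 fold change 3.54, SE 0.16, adjusted p = 3.0e-25). The filament gene vim held 296 to 398 CPM at 72 hpl with a median of 322, against 72.8 to 110.4 CPM at 0 h with a median of 95.2 (log2 fold change 1.85, SE 0.13, adjusted p = 2.7e-17), and the stem cell factor sox2 held 86.8 to 191 CPM at 72 hpl with a median of 132, against 16.7 to 54.1 CPM at 0 h with a median of 40.8 (log2 fold change 1.81, SE 0.21, adjusted p = 2.7e-10). None of the 3 overlapped between the groups. The lipid carrier apoeb, made by glia and macrophages, held 1818 to 3022 CPM at 72 hpl with a median of 2139, against 410.1 to 600.4 CPM at 0 h with a median of 518. Lower were the glutamate transporter slc1a2a (0 to 2.72 CPM at 72 hpl with a median of 1.59, against 16.2 to 31 CPM at 0 h with a median of 23.9, log2 fold change −3.86, SE 0.48, adjusted p = 1.5e-09), the glutamine synthetase glula (327 to 619 CPM at 72 hpl with a median of 486, against 699.8 to 1300 CPM at 0 h with a median of 786, log2 fold change −0.91, SE 0.14, adjusted p = 2.2e-07), the repressor id2b (−2.01) and the retinol dehydrogenase rdh10a (−1.06).

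Of 40 gliosis and injury genes, 24 were higher and 2 lower, with a median log2 fold change of 1.55. The stress factor atf3 held 519 to 931 CPM at 72 hpl with a median of 684, against 18 to 41.1 CPM at 0 h with a median of 29.4 (log2 fold change 4.62, SE 0.20, adjusted p = 1.3e-26) and the AP-1 factor jun held 87.9 to 195 CPM at 72 hpl with a median of 156, against 8.69 to 21.8 CPM at 0 h with a median of 14.8 (log2 fold change 3.27, SE 0.24, adjusted p = 2.8e-17). Neither overlapped between the groups. The gelatinase gene mmp9 held 79.1 to 293 CPM at 72 hpl with a median of 143, against 2.79 to 10.2 CPM at 0 h with a median of 6.92 (log2 fold change 4.46, SE 0.36, adjusted p = 1.7e-15). Lower were the chemokine cxcl18b (−1.14) and the cytokine receptor lifra (−0.44), whose call ended without 72 hpl replicates 4, 6 or 0 h replicates 4, 5 (−0.38 to −0.31, adjusted p = 0.079 to 0.15). The Jak-Stat pathway, which carries cytokine signals to the nucleus, had 8 of 26 genes higher and 2 lower. The ligand lepb, a fish leptin switched on by injury, held 19.3 to 48.1 CPM at 72 hpl with a median of 29, against 0 to 4.96 CPM at 0 h with a median of 0.825 (log2 fold change 4.41, SE 0.54, adjusted p = 9.8e-10, or 5.40 without 0 h replicate 4), and the ligand-binding crlf1a changed by 2.48. The kinase jak1 held 280.4 to 310.3 CPM at 72 hpl with a median of 297, against 130.4 to 181 CPM at 0 h with a median of 153 (log2 fold change 0.95, SE 0.11, adjusted p = 7.8e-11). The factor stat3 held 85.5 to 135 CPM at 72 hpl with a median of 90.8, against 56 to 89.9 CPM at 0 h with a median of 69.7 (log2 fold change 0.51, SE 0.14, adjusted p = 0.0026), with overlapping groups and a change of 0.47 in experiment 2, where it was not called alone. The feedback inhibitor socs3b held 7 to 29.6 CPM at 72 hpl with a median of 18.4, against 0 to 3.58 CPM at 0 h with a median of 1.45 (log2 fold change 3.21, SE 0.47, adjusted p = 1.2e-07), and stat5a changed by −0.52.

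Most chaperone genes were higher. Of 30 heat shock chaperone genes 20 were higher (66.7%, against 22.7% of all genes) and 6 lower (20%, near the 20.2% of all genes). The inducible hsp70.3 held 83.9 to 201 CPM at 72 hpl with a median of 135, against 0 to 6.26 CPM at 0 h with a median of 2.2 (log2 fold change 5.51, SE 0.48, adjusted p = 2.8e-14), and its near-identical copies may share its reads. The mitochondrial chaperonin hspd1 held 393 to 519 CPM at 72 hpl with a median of 488, against 93.9 to 129 CPM at 0 h with a median of 102 (log2 fold change 2.13, SE 0.13, adjusted p = 1.1e-19), and the Hsp90 partner chordc1a held 129 to 215 CPM at 72 hpl with a median of 157, against 8.06 to 34.3 CPM at 0 h with a median of 15.7 (log2 fold change 3.06, SE 0.23, adjusted p = 8.4e-17). The reticulum chaperone hsp90b1 held 651 to 1129 CPM at 72 hpl with a median of 824, against 48.4 to 113 CPM at 0 h with a median of 99. Its companion hspa5 held 861 to 2244 CPM at 72 hpl with a median of 1337, against 117 to 274 CPM at 0 h with a median of 168. All of these separated the groups. The lower members were the heat shock factors hsf1 (−0.82) and hsf2 (−1.03), which switch such genes on, the small heat shock genes cryaba (−5.07), cryabb (−1.24) and hspb15 (−1.47), and the cochaperone bag3 (−0.58). The call of cryaba ended without 0 h replicate 2 (−1.98, adjusted p = 0.078), and it came to −5.74 without 72 hpl replicate 4. The call of bag3 ended without 72 hpl replicate 1 (−0.50, adjusted p = 0.051). The 0 h retina left out for cryaba is the one whose lens genes were high, and cryaba is also a lens protein gene. Of 21 genes of the unfolded protein response 13 were higher and 0 lower, among them the calcium-binding chaperones calr3a (755 to 1064 CPM at 72 hpl with a median of 914, against 150.1 to 215 CPM at 0 h with a median of 166) and calr3b (2.50), the disulfide isomerase pdia3 (1.75) and hyou1 (2.14). Of 17 amino acid response genes 6 were higher (35.3%, against 22.7% of all genes) and 4 lower (23.5%, near the 20.2% of all genes). Serine synthesis gene psat1 held 27.8 to 57.2 CPM at 72 hpl with a median of 47.7, against 4.65 to 11.3 CPM at 0 h with a median of 6.21, and the factor atf4b changed by 0.93 and its copy atf4a by −0.72. The stress pseudokinase trib3 changed by 1.64 and the glutathione-degrading chac1 by −1.48. Of 44 proteasome genes 35 were higher and 0 lower, with a median of 0.80, led by psma4, psmb1, psma5 and psmb6 (1.30, 1.25, 1.44 and 1.11).

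Most cell cycle genes were higher. Of 46 genes of DNA replication 33 were higher and 5 lower, with a median of 1.42. The sliding clamp pcna held 237 to 369 CPM at 72 hpl with a median of 281, against 52.3 to 111 CPM at 0 h with a median of 74.3 (log2 fold change 1.95, SE 0.18, adjusted p = 1.4e-13). The helicase subunit mcm7 held 178 to 273 CPM at 72 hpl with a median of 233, against 14.8 to 40 CPM at 0 h with a median of 19.9 (log2 fold change 3.25, SE 0.20, adjusted p = 1.8e-20) and mcm3 held 36 to 50.3 CPM at 72 hpl with a median of 44.6, against 0.62 to 3.78 CPM at 0 h with a median of 2.46 (log2 fold change 4.15, SE 0.35, adjusted p = 5.1e-15). The hemimethylation reader uhrf1, which brings the maintenance methyltransferase to new DNA, held 82.9 to 156 CPM at 72 hpl with a median of 115, against 7.01 to 13.1 CPM at 0 h with a median of 11.5. No 0 h retina reached the 72 hpl retinas for any of these 4. Against the list went the clamp loader rfc5 (−1.29), gins1 (−1.1), the cyclin ccne1 (−0.92), the maintenance methyltransferase dnmt1 (−0.63) and the origin protein orc1 (−0.83). Of 24 nucleotide synthesis genes 13 were higher and 3 lower. Besides tyms, the ribonucleotide reductase rrm1 held 85 to 138 CPM at 72 hpl with a median of 111, against 8.69 to 21.2 CPM at 0 h with a median of 13 (log2 fold change 2.98, SE 0.18, adjusted p = 2.2e-20), the kinase nme2b.1 held 616 to 881 CPM at 72 hpl with a median of 767, against 122 to 209.7 CPM at 0 h with a median of 145, and dck changed by 3.48. The purine gene pfas (−1.19), the CTP synthase copy ctps1b (−0.82) and adsl (−0.58) were lower, and the call of adsl ended without 72 hpl replicate 1 or 0 h replicate 4 (−0.46 to −0.41, adjusted p = 0.052 to 0.088).

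Mitosis genes had the highest median of the 57 lists. Of 51 genes 40 were higher and 1 lower, with a median of 2.13, and for 35 the groups did not overlap. Over all genes 12.7% were higher with no overlap. The proliferation marker mki67 held 342 to 598 CPM at 72 hpl with a median of 518, against 27.4 to 45.9 CPM at 0 h with a median of 32.1 (log2 fold change 3.82, SE 0.15, adjusted p = 3.8e-28). The topoisomerase top2a held 357 to 513 CPM at 72 hpl with a median of 449.9, against 20.5 to 43.7 CPM at 0 h with a median of 33.1 (log2 fold change 3.78, SE 0.17, adjusted p = 3.3e-26). The spindle gene tpx2 held 302 to 398 CPM at 72 hpl with a median of 351, against 36.7 to 69.7 CPM at 0 h with a median of 50.3, and nusap1, which binds spindle microtubules, held 187 to 276 CPM at 72 hpl with a median of 233, against 7.44 to 19.4 CPM at 0 h with a median of 11.3. None of the 4 overlapped between the groups. The cytokinesis regulator ect2 was lower (27.4 to 58.3 CPM at 72 hpl with a median of 44.9, against 33.6 to 154 CPM at 0 h with a median of 99, log2 fold change −1.18, SE 0.26, adjusted p = 1.8e-04), with overlapping groups. Of 24 G1 cyclins and CDK inhibitors 15 were higher and 1 lower. The cyclin ccnd1, which drives entry into the cycle, held 706 to 1233 CPM at 72 hpl with a median of 830.4, against 36.7 to 70.7 CPM at 0 h with a median of 59.2 (log2 fold change 3.91, SE 0.19, adjusted p = 3.2e-24). The growth-arrest genes gadd45ga and gadd45gb.1 were higher too: gadd45ga held 115 to 231 CPM at 72 hpl with a median of 149, against 6.2 to 18.7 CPM at 0 h with a median of 10.4, and gadd45gb.1 held 23 to 41.3 CPM at 72 hpl with a median of 28.6, against 0 to 1.86 CPM at 0 h with a median of 0.27. The phosphatase cdc25b changed by 1.59.

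Among 37 chromatin genes 22 were higher (59.5%, against 22.7% of all genes) and 8 lower (21.6%, near the 20.2% of all genes). The architectural protein gene hmga1a held 1588 to 2114 CPM at 72 hpl with a median of 1795, against 180.4 to 277 CPM at 0 h with a median of 244, and hmgb2b, which bends DNA, held 642 to 1229 CPM at 72 hpl with a median of 885, against 62.3 to 109 CPM at 0 h with a median of 88.8. The microtubule regulator stmn1a, listed with them as a proliferation gene, held 264 to 365 CPM at 72 hpl with a median of 294, against 4.65 to 17.4 CPM at 0 h with a median of 9.41 (log2 fold change 4.83, SE 0.24, adjusted p = 5.3e-24). The high mobility group gene hmgb3a went the other way, with 78.5 to 204 CPM at 72 hpl with a median of 139, against 608 to 910.3 CPM at 0 h with a median of 681 (log2 fold change −2.36, SE 0.17, adjusted p = 1.7e-17), and its copy hmgb3b changed by −0.56. Also lower were the de novo methyltransferases dnmt3aa, dnmt3ab and dnmt3bb.1 (−1.39, −0.89 and −0.81), the Polycomb gene suz12a (−0.96) and the prothymosin ptmaa (−0.35).

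Of 30 proneural and precursor factors 22 were higher and 0 lower, with a median of 1.62. The factor ascl1a, required for Müller glia to re-enter the cycle, held 50.6 to 119 CPM at 72 hpl with a median of 84, against 0 to 8.09 CPM at 0 h with a median of 2.61 (log2 fold change 4.58, SE 0.37, adjusted p = 1.8e-15). The zinc-finger repressor insm1a, which helps progenitors leave the cycle, held 165 to 190.2 CPM at 72 hpl with a median of 178, against 1.24 to 15.5 CPM at 0 h with a median of 7.88 (log2 fold change 4.36, SE 0.30, adjusted p = 2.4e-18). The SoxC factor sox11b held 615 to 969 CPM at 72 hpl with a median of 815, against 22.3 to 68.8 CPM at 0 h with a median of 50.4 (log2 fold change 4.01, SE 0.18, adjusted p = 5.2e-26). The 6 retinas at 72 hpl lay close together for insm1a and prdm1a, whose highest value was less than 1.5 times the lowest. Of 24 reprogramming and stem cell factors 10 were higher and 3 lower. Besides sox2 these included zic2b (23.4 to 36.9 CPM at 72 hpl with a median of 32, against 0.93 to 6.47 CPM at 0 h with a median of 3.11), tgif1 (1.40) and mycn (1.19), while sall1a (−1.03), klf2b (−1.43) and dnmt1 were lower.

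**Figure D3:**
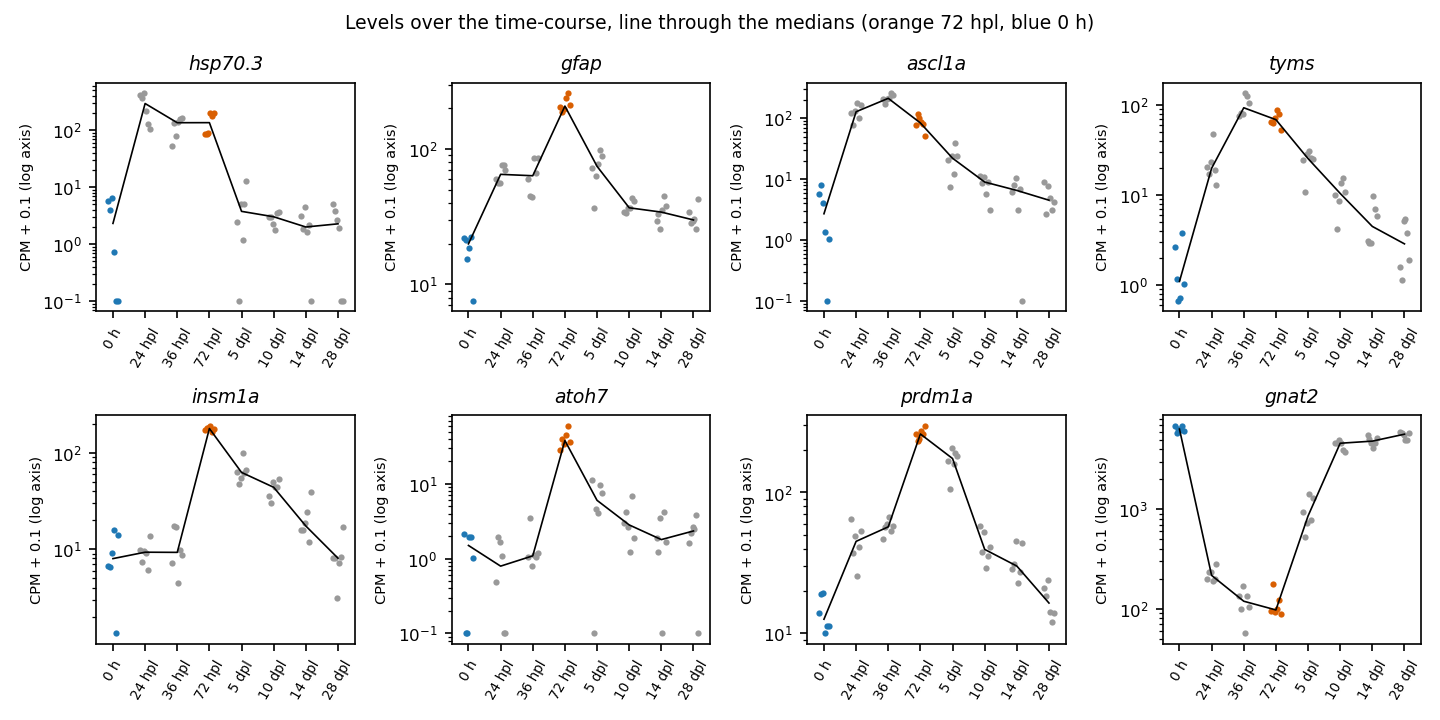
CPM (log axis, 0.1 added) of 8 genes in each retina at the 8 times of the time-course, from 0 h to 28 dpl (days post-light), with a line through the medians, the 72 hpl retinas in orange and the 0 h retinas in blue. The medians of gfap, insm1a, atoh7 and prdm1a are highest at 72 hpl, those of ascl1a and tyms at 36 hpl and that of hsp70.3 at 24 hpl, and gnat2 has its lowest median at 72 hpl.

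Of 33 Notch pathway genes 19 were higher and 5 lower. Notch signaling keeps a share of progenitors from differentiating. The receptor notch1b held 62.4 to 158 CPM at 72 hpl with a median of 100, against 17.4 to 39.9 CPM at 0 h with a median of 29.4 (log2 fold change 1.84, SE 0.17, adjusted p = 2.1e-13), and the receptor notch3 held 85.3 to 130.1 CPM at 72 hpl with a median of 113, against 18 to 27.6 CPM at 0 h with a median of 21.3. Their nuclear partner rbpjb held 194 to 277 CPM at 72 hpl with a median of 249, against 72.3 to 99.2 CPM at 0 h with a median of 82.9 (log2 fold change 1.53, SE 0.13, adjusted p = 8.7e-15), and the effector hes2.2 held 70 to 194 CPM at 72 hpl with a median of 88.2, against 2.28 to 6.47 CPM at 0 h with a median of 2.64. All separated the groups. Lower were the Notch inhibitor numbl (−1.12), the effectors her8a, hey2 and hey1 (−0.88, −0.75 and −0.45) and the endothelial ligand dll4 (−0.61). The calls of 3 of them ended with any 1 of several retinas left out. That of hey2 ended without 72 hpl replicates 2, 3, 6 or 0 h replicates 1, 4, 5 (−0.74 to −0.56, adjusted p = 0.052 to 0.14). That of hey1 ended without 72 hpl replicates 3, 5, 6 or 0 h replicate 4 (−0.42 to −0.22, adjusted p = 0.067 to 0.32). That of dll4 ended without 72 hpl replicates 3, 4 or 0 h replicates 1, 2, 4, 5 (−0.59 to −0.52, adjusted p = 0.054 to 0.085).

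Of 44 TGF-beta, BMP and activin genes 10 were higher and 6 lower. The activin subunit inhbb held 134 to 291 CPM at 72 hpl with a median of 185, against 7.44 to 13.1 CPM at 0 h with a median of 11.8 (log2 fold change 4.06, SE 0.30, adjusted p = 9.3e-17), and the other subunit gene inhbaa changed by −0.62. The inhibitor of differentiation id3 held 116 to 257 CPM at 72 hpl with a median of 186, against 39.4 to 58.5 CPM at 0 h with a median of 43.3, and the inhibitory genes smad7 and bambia changed by 1.69 and 1.67. The transducer smad3a (−0.66) and the coreceptor tgfbr3 (−1.11) were lower. Of 39 Wnt pathway genes 11 were higher and 4 lower (2 to 5 lower with 1 retina left out). These were 28.2% and 10.3%, against 22.7% and 20.2% of all genes. Beta-catenin ctnnb1 held 143 to 268 CPM at 72 hpl with a median of 209, against 53.4 to 94.5 CPM at 0 h with a median of 66.2 (log2 fold change 1.49, SE 0.16, adjusted p = 1.2e-11), the receptor fzd5 held 30.5 to 66.9 CPM at 72 hpl with a median of 49, against 1.86 to 11.4 CPM at 0 h with a median of 6.21, the factor tcf7l1a changed by 1.21 and lef1 by −1.02. Of 39 growth factor genes 7 were higher (17.9%, against 22.7% of all genes) and 12 lower (30.8%, against 20.2%). The binding protein igfbp3 held 56.7 to 122 CPM at 72 hpl with a median of 100.3, against 8.69 to 27 CPM at 0 h with a median of 13.6 (log2 fold change 2.70, SE 0.23, adjusted p = 6.1e-15), while igf1 itself held 15.8 to 23.3 CPM at 72 hpl with a median of 20.3, against 67.2 to 113 CPM at 0 h with a median of 90.9 (log2 fold change −2.21, SE 0.20, adjusted p = 6.5e-14). The ligands nrg1 and vegfaa changed by −1.15 and −1.88. Midkine mdkb and pleiotrophin ptn, relatives that bind heparin, moved apart (0.82 and −0.78).

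Of 35 matrix and adhesion genes 11 were higher (31.4%) and 7 lower (20%, near the 20.2% of all genes). Tenascin-C, tnc, held 53.5 to 108 CPM at 72 hpl with a median of 79.5, against 11.2 to 24.8 CPM at 0 h with a median of 21.6 (log2 fold change 1.98, SE 0.19, adjusted p = 9.9e-13) and tenascin-R, tnr, held 139.5 to 247 CPM at 72 hpl with a median of 168, against 244 to 461 CPM at 0 h with a median of 311 (log2 fold change −0.83, SE 0.15, adjusted p = 9.5e-06), with overlapping groups. The integrin itgb1b changed by 2.58 and itga5 by −1.06. Of 23 proteases and inhibitors 6 were higher (26.1%, near the 22.7% of all genes) and 2 lower (8.7%, against 20.2%). The collagen chaperone serpinh1b held 151 to 322 CPM at 72 hpl with a median of 280.0, against 5.58 to 26.4 CPM at 0 h with a median of 15.2 (log2 fold change 4.10, SE 0.39, adjusted p = 3.7e-13), and the membrane proteases mmp14b and adam8a changed by 2.59 and 2.35.

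Of 40 microglia and macrophage genes 24 were higher and 3 lower, with a median of 1.71. The summed level of the list was 3192 to 5905 CPM at 72 hpl with a median of 4145, against 1272 to 1609 CPM at 0 h with a median of 1368. A large part of it was apoeb, which glia make as well, and without apoeb the sum was 1229 to 3085 CPM at 72 hpl with a median of 2078, against 815 to 1009 CPM at 0 h with a median of 857. The myeloid factor spi1b held 61 to 139.6 CPM at 72 hpl with a median of 93, against 4.65 to 21.6 CPM at 0 h with a median of 14 (log2 fold change 2.84, SE 0.25, adjusted p = 1.9e-14), and the chemokine ccl34b.1 changed by 1.86. The macrophage pore gene mpeg1.1 held 9.72 to 53 CPM at 72 hpl with a median of 33.7, against 2.79 to 15.4 CPM at 0 h with a median of 7.49 (log2 fold change 1.83, SE 0.35, adjusted p = 2.4e-05). Its groups overlapped, and its change was 0.47 in experiment 1 and 3.73 in experiment 2. Lower were mpeg1.2 (−0.91), the lysosomal enzyme hexb (−0.72) and the mannose receptor mrc1b (−0.37). All 3 had overlapping groups, and the call of mpeg1.2 ended without 72 hpl replicates 1, 2, 3, 5 or 0 h replicates 3, 6 (−0.88 to −0.74, adjusted p = 0.051 to 0.089) and that of mrc1b without 72 hpl replicates 2, 4, 5, 6 or 0 h replicates 3, 4, 5, 6 (−0.37 to −0.27, adjusted p = 0.057 to 0.17). The change of hexb was −1.26 in experiment 1 and −0.10 in experiment 2. In experiment 1 alone 14 of the 40 were higher. Of 33 lysosomal and phagocytic genes 17 were higher and 3 lower. The cathepsin ctsc, a protease of the lysosome, held 63.4 to 167 CPM at 72 hpl with a median of 114, against 6.2 to 22.4 CPM at 0 h with a median of 10. Cathepsin ctsd held 218 to 476 CPM at 72 hpl with a median of 386, against 60.8 to 142 CPM at 0 h with a median of 89.1, and ctsla held 279 to 678 CPM at 72 hpl with a median of 462, against 29.2 to 128 CPM at 0 h with a median of 82.9. None of these overlapped between the groups. The tetraspanin cd63 changed by 1.83, and the scavenger receptors scarb2 and cd36 by −1.22 and −1.08.

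Of 12 neutrophil genes 3 were higher and 2 lower, and besides mmp9 and s100a10b (1.42), which are on other lists too, the higher one was lyz (7.2 to 18.9 CPM at 72 hpl with a median of 12.4, against 0.511 to 7.44 CPM at 0 h with a median of 3.48), while the granule marker mpx was not called (3.66 to 8.7 CPM at 72 hpl with a median of 4.48, against 3.1 to 8.54 CPM at 0 h with a median of 4.65). The lower ones, with overlapping groups, were csf3r (13.6 to 22.9 CPM at 72 hpl, against 4.98 to 52.1 CPM at 0 h) and nccrp1 (9.72 to 36.8 CPM, against 25.1 to 71.3 CPM). Of 14 genes on the lymphocyte list 2 were higher (1 to 2 with 1 retina left out) and 4 lower, and the homing receptor ccr7 held 19.4 to 42.1 CPM at 72 hpl with a median of 27.7, against 59.1 to 185 CPM at 0 h with a median of 66.5 (log2 fold change −1.64, SE 0.26, adjusted p = 4.0e-07). The higher ones, with overlapping groups, were cd3eap (35 to 44.5 CPM at 72 hpl, against 19.9 to 42.9 CPM at 0 h) and cd79a (1.08 to 4.88 CPM, against 0 to 1.87 CPM). Whether cd3eap marks lymphocytes was not tested. The call of cd79a ended without 72 hpl replicates 4, 6 or 0 h replicates 1, 2, 4, 6 (1.57 to 1.76, adjusted p = 0.066 to 0.089). Of 20 complement genes 4 were higher and 2 lower (1 to 3 lower with 1 retina left out): clu held 1626 to 3976 CPM at 72 hpl with a median of 3058, against 783 to 1236 CPM at 0 h with a median of 1020 (log2 fold change 1.54, SE 0.19, adjusted p = 7.2e-10), and the 3 chains of C1q that macrophages make, c1qa, c1qb and c1qc, changed by 2.58, 1.63 and 3.21 at low levels. The value of c1qb was 2.36 without 0 h replicate 1, and its call ended without 72 hpl replicate 4 (1.33, adjusted p = 0.061). Of 32 interferon and antigen presentation genes 14 were higher and 3 lower. The light chain of class I molecules b2m held 68.1 to 180.3 CPM at 72 hpl with a median of 109.9, against 8.37 to 21 CPM at 0 h with a median of 11.9 (log2 fold change 3.05, SE 0.32, adjusted p = 1.2e-11), and the peptide-loading tapbp.1, the GTPase gbp1 and the factor irf1b changed by 2.46, 2.78 and 2.27. The antiviral genes rsad2 and ifit10 changed by −2.11 and −1.79, and their calls ended without 72 hpl replicate 1 (−1.78, adjusted p = 0.053) and without 0 h replicate 5 (−1.54, adjusted p = 0.062). Of 28 TNF, IL-1 and NF-κB genes 7 were higher and 5 lower. The adaptor tradd changed by 2.35, the inhibitor nfkbiaa by 1.78 and the NF-κB subunit rel by −1.15.

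Of 32 Nrf2 and iron genes 13 were higher and 6 lower. Thioredoxin txn held 155 to 358 CPM at 72 hpl with a median of 255, against 13.7 to 27 CPM at 0 h with a median of 16.7 (log2 fold change 3.71, SE 0.21, adjusted p = 2.5e-21), and the peroxiredoxin prdx2 held 655 to 1098 CPM at 72 hpl with a median of 987, against 163 to 331 CPM at 0 h with a median of 237. The thioredoxin reductase txnrd1 changed by 0.83, while the mitochondrial superoxide dismutase sod2 and peroxiredoxin prdx3 changed by −0.78 and −0.51. Of 38 p53 and apoptosis genes 17 were higher and 3 lower. The executioner caspase casp3a held 105 to 147 CPM at 72 hpl with a median of 115, against 5.58 to 23.9 CPM at 0 h with a median of 14 (log2 fold change 3.12, SE 0.30, adjusted p = 4.3e-13), the pore-former baxa changed by 1.17, and the survival and mitosis gene birc5a by 3.40.

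Lists of inner retinal neurons held both higher and lower genes. Of 29 amacrine genes 7 were higher and 10 lower, of 33 ganglion cell genes 14 and 2, of 28 bipolar genes 6 and 10, and of 18 horizontal cell genes 5 and 4. The horizontal cell shares, and the higher shares of the amacrine and bipolar lists, were near those of all genes (22.7% higher and 20.2% lower). Among the higher genes, the transcription factor prox1a held 145 to 280.4 CPM at 72 hpl with a median of 205, against 47.4 to 78.2 CPM at 0 h with a median of 68.4 (log2 fold change 1.55, SE 0.15, adjusted p = 1.1e-12), tfap2c held 79.9 to 157 CPM at 72 hpl with a median of 102, against 24.8 to 53.5 CPM at 0 h with a median of 32.6, and onecut1 held 151 to 277 CPM at 72 hpl with a median of 216, against 47.5 to 104 CPM at 0 h with a median of 62.1. Among the lower genes, the neuropeptide npy held 7.57 to 15.8 CPM at 72 hpl with a median of 12.3, against 37.8 to 82.8 CPM at 0 h with a median of 62.1 (log2 fold change −2.33, SE 0.27, adjusted p = 3.0e-10), the acetylcholine enzyme chata changed by −1.37, and the calretinins calb2a and calb2b by −0.74 and −1.01. The bipolar cell channels trpm1a and trpm1b changed by −0.90 and −1.57. On the horizontal cell list, ndrg1a held 102 to 226 CPM at 72 hpl with a median of 181, against 641 to 1584 CPM at 0 h with a median of 808 (log2 fold change −2.41, SE 0.21, adjusted p = 2.7e-14), and the connexin cx52.6 changed by −1.52. Of the pan-neuronal RNA-binding genes, elavl3 held 15.9 to 32.7 CPM at 72 hpl with a median of 23.4, against 21.5 to 46.5 CPM at 0 h with a median of 25.4 (log2 fold change −0.30, SE 0.23, adjusted p = 0.29) and was not called, and elavl4 held 799.7 to 1087 CPM at 72 hpl with a median of 929.8, against 609.7 to 800.2 CPM at 0 h with a median of 680.2 (log2 fold change 0.44, SE 0.11, adjusted p = 0.0014), a change of 0.34 in experiment 1 and 0.47 in experiment 2.

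Of 68 genes of axon guidance and growth 23 were higher and 12 lower, with a median of −0.02. The tubulin tubb5 held 891 to 1683 CPM at 72 hpl with a median of 1167, against 38.5 to 59.1 CPM at 0 h with a median of 47.7 (log2 fold change 4.68, SE 0.24, adjusted p = 3.8e-23) and tuba1a held 979 to 1311 CPM at 72 hpl with a median of 1137, against 106 to 147 CPM at 0 h with a median of 116. The growth cone protein gap43 held 339 to 379 CPM at 72 hpl with a median of 363, against 27.9 to 48.5 CPM at 0 h with a median of 37.4 (log2 fold change 3.28, SE 0.21, adjusted p = 1.9e-19), and the MARCKS gene marcksb held 391 to 500.2 CPM at 72 hpl with a median of 482, against 28.6 to 39.8 CPM at 0 h with a median of 34.8. None of the 4 overlapped between the groups. Among the guidance cues that fell, sema7a held 13 to 29.2 CPM at 72 hpl with a median of 20.9, against 128 to 174 CPM at 0 h with a median of 158 (log2 fold change −2.92, SE 0.18, adjusted p = 5.3e-20), and sema6d, efna1b and sema3b changed by −2.25, −2.39 and −1.34.

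Of 35 glycolysis genes, which photoreceptors use heavily, 20 were lower and 0 higher, with a median of −0.78. The enolase eno1b held 19.3 to 54.7 CPM at 72 hpl with a median of 31.8, against 382 to 689 CPM at 0 h with a median of 438 (log2 fold change −3.87, SE 0.21, adjusted p = 1.9e-22), the glucose transporter slc2a1a held 3.66 to 20.2 CPM at 72 hpl with a median of 12.1, against 83.7 to 169 CPM at 0 h with a median of 129 (log2 fold change −3.45, SE 0.24, adjusted p = 4.9e-18), and the hexokinase hk1 held 189 to 229.8 CPM at 72 hpl with a median of 197, against 519.7 to 617 CPM at 0 h with a median of 570.1 (log2 fold change −1.50, SE 0.10, adjusted p = 5.2e-18). Their groups did not overlap. Of 85 respiratory chain genes 11 were higher and 11 lower, with a median of 0.00. That count of 11 lower moved to 19 with DESeq2, with the 12 libraries fitted alone or without 5 dpl replicate 2, and the count higher to 7 without 0 h replicate 4. Experiment 1 alone gave 2 higher and 9 lower, experiment 2 alone 19 higher and 12 lower, and the fit without an experiment block 6 and 6. The subunit ndufs8b held 2.69 to 6.95 CPM at 72 hpl with a median of 3.92, against 25.1 to 68 CPM at 0 h with a median of 32 (log2 fold change −3.18, SE 0.43, adjusted p = 1.9e-08), and the ATPase inhibitors atpif1a and atpif1b changed by 0.58 and −0.72. Of 42 genes of cholesterol and lipid synthesis 23 were lower and 4 higher. The elongase elovl4b, which makes the very long chain fatty acids of outer segments, held 163 to 213 CPM at 72 hpl with a median of 189.7, against 2058 to 3456 CPM at 0 h with a median of 2636 (log2 fold change −3.78, SE 0.15, adjusted p = 5.8e-28). The sterol enzyme hmgcs1 held 8.52 to 19.4 CPM at 72 hpl with a median of 16.1, against 52.9 to 72.3 CPM at 0 h with a median of 62.6, and hmgcra, the rate-limiting reductase, held 10.2 to 20.2 CPM at 72 hpl with a median of 11.6, against 60.4 to 90.6 CPM at 0 h with a median of 79.3. The higher members were apoeb, the cholesterol exporter abca1a (1.1), the elongase elovl1b (1.53) and the desaturase fads2 (0.57), whose call ended without 72 hpl replicates 2, 3, 4, 6 or 0 h replicates 1, 3, 4, 6 (0.45 to 0.57, adjusted p = 0.057 to 0.14). Of 10 fatty acid binding protein genes 3 were higher and 1 lower (30% and 10%), with a median of −0.13. Besides fabp7a, the fatty acid binding protein fabp11a held 69.6 to 606 CPM at 72 hpl with a median of 261, against 4.34 to 34.5 CPM at 0 h with a median of 10.7 (log2 fold change 4.41, SE 0.53, adjusted p = 4.8e-10). The lower one was fabp1a (34.2 to 147 CPM at 72 hpl, against 199 to 482 CPM at 0 h).

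All 81 cytosolic ribosomal protein genes were higher, with a median log2 fold change of 1.70, and the groups did not overlap for 80 of them (12.7% of all genes were higher with no overlap). Their summed level was 102337 to 141483 CPM at 72 hpl with a median of 120428, against 31583 to 49407 CPM at 0 h with a median of 33513, and they took 10.8 to 13.8% (median 12.2%) of the counted reads at 72 hpl, against 3.34 to 4.16% (median 3.55%) at 0 h. The stalk gene rplp1 held 4148 to 5500 CPM at 72 hpl with a median of 4933, against 993 to 1573 CPM at 0 h with a median of 1132 (log2 fold change 2.05, SE 0.10, adjusted p = 1.9e-23), and rpl13 held 1688 to 2030 CPM at 72 hpl with a median of 1865, against 459 to 742 CPM at 0 h with a median of 530.3 (log2 fold change 1.74, SE 0.11, adjusted p = 6.4e-20). The smallest change was that of rplp2 (0.76), whose reads may be shared with its copy rplp2l. With libraries scaled by total counts alone, all 81 were again higher, with a median of 1.72. Of 51 ribosome biogenesis genes 27 were higher and 2 lower, with a median of 0.40, led by npm1a (1.40), nop58 (1.19), nhp2 (1.28) and dkc1 (0.89). Of 52 splicing factor genes 40 were higher and 0 lower, including snrpf (381 to 567 CPM at 72 hpl with a median of 436, against 97.9 to 175 CPM at 0 h with a median of 134) and hnrnpa0b (199 to 372 CPM at 72 hpl with a median of 281, against 38.7 to 65.5 CPM at 0 h with a median of 47.5).

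**Figure D4:**
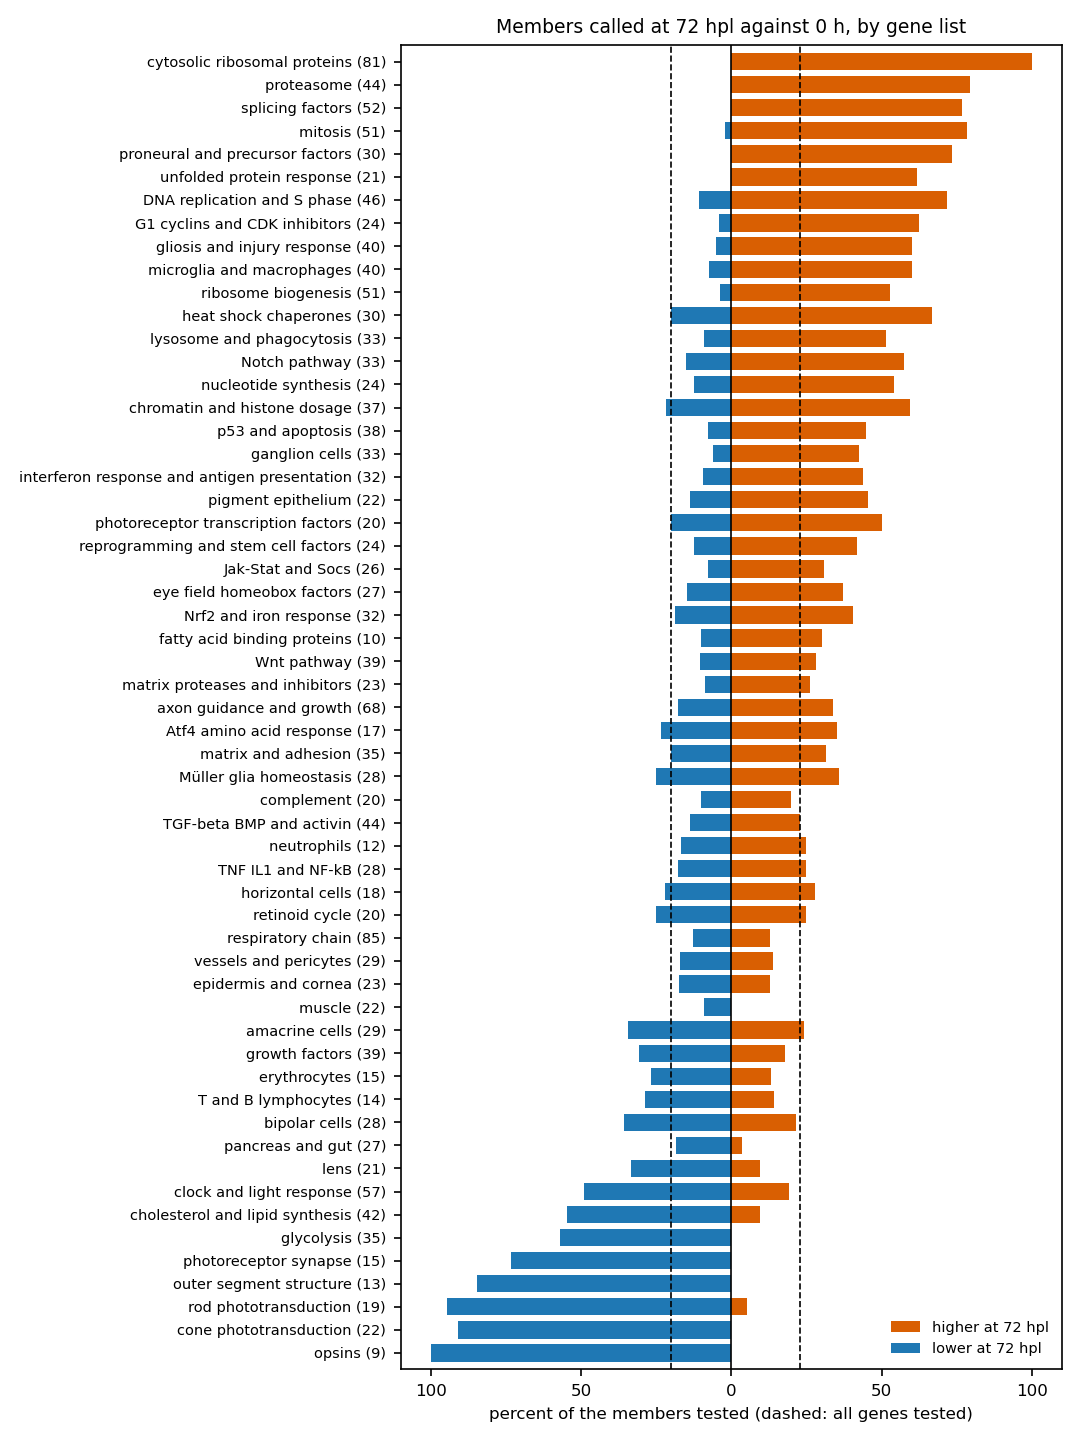
Share of the members of each of the 57 gene lists that was higher (right, orange) or lower (left, blue) at 72 hpl than in 0 h retinas (edgeR quasi-likelihood test), with the number of members tested beside each name. Dashed lines mark the shares over all 13075 genes, 22.7% higher and 20.2% lower.

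Read against those shares, the TGF-beta list (10 of 44 higher), the TNF and NF-κB list (7 of 28) and the neutrophil list (3 of 12) held about as many higher members as all genes did. So did the complement list (4 of 20) and the protease and inhibitor list (6 of 23). The muscle list (2 of 22 lower) and the respiratory chain (11 of 85 in each direction) held fewer called members than all genes.

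Clock and light-response genes, which cycle through the day and react to light, differed widely. Of 57 genes 28 were lower and 11 higher. The period gene per1b held 41.4 to 63.6 CPM at 72 hpl with a median of 54.9, against 441 to 618 CPM at 0 h with a median of 507 (log2 fold change −3.30, SE 0.21, adjusted p = 8.1e-20), the clock repressor bhlhe40 held 126 to 165 CPM at 72 hpl with a median of 153, against 762 to 1009 CPM at 0 h with a median of 851 and the cryptochrome cry2 held 58.3 to 81 CPM at 72 hpl with a median of 65.9, against 204 to 342 CPM at 0 h with a median of 236. The output factor hlfa changed by −2.49 and its antagonist nfil3 held 36 to 65.8 CPM at 72 hpl with a median of 53.9, against 2.85 to 23 CPM at 0 h with a median of 5.58 (log2 fold change 2.73, SE 0.33, adjusted p = 1.0e-09, or 3.35 without 0 h replicate 5). Higher too were cry1ba (679 to 991 CPM at 72 hpl with a median of 787, against 256 to 633 CPM at 0 h with a median of 383) and the DNA repair genes xpc and ddb2, which in zebrafish respond to light (0.91 and 1.49). The 72 hpl fish had been in light and the 0 h fish in darkness for days, and hour of collection was not given in the sources used here, so light, clock phase and injury cannot be told apart.

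Tissues that can come with a dissected retina were looked at in the same way. Of 22 pigment epithelium genes 10 were higher and 3 lower, and their summed level was 3588 to 6529 CPM at 72 hpl with a median of 4531, against 2332 to 4706 CPM at 0 h with a median of 3256. The melanin enzyme tyrp1b held 575 to 1064 CPM at 72 hpl with a median of 896, against 55.2 to 103 CPM at 0 h with a median of 79 (log2 fold change 3.37, SE 0.25, adjusted p = 3.7e-17), and the melanosome genes pmela and pmelb changed by 1.43 and 2.36. The 3 lower members were the vitamin A receptor stra6 (−0.47, adjusted p = 0.044), the connexin cx43 (−0.71) and trpm1b (−1.57), and 9 were not called. The call of stra6 ended without 72 hpl replicates 1, 2, 4, 5, 6 or 0 h replicates 1, 2, 5, 6 (−0.48 to −0.38, adjusted p = 0.053 to 0.12). The retinoid cycle genes rpe65a and lrata are on this list too, and the part of adhering epithelium in their values was not tested. Of 21 lens genes 2 were higher and 7 lower. Their summed level was 105.9 to 121.3 CPM at 72 hpl with a median of 114, against 63.88 to 858.4 CPM at 0 h with a median of 75.69, the highest 0 h value being that of replicate 2, and without that retina 4 lens genes were higher and 1 lower. Of 23 epidermis and cornea genes 3 were higher and 4 lower (13% and 17.4%), with a median of −0.32. Among the higher ones was icn, a calcium-binding protein gene (318 to 944 CPM at 72 hpl with a median of 634, against 38.7 to 99.6 CPM at 0 h with a median of 47.3, log2 fold change 3.34, SE 0.33, adjusted p = 1.7e-12). Lower were evpla (9.75 to 35.6 CPM at 72 hpl, against 37.3 to 70.7 CPM at 0 h), krt15, scel and krt94. The call of krt94 ended with any 1 of several retinas left out. Of 22 muscle genes 0 were higher and 2 lower (9.09%), and of 15 erythrocyte genes 2 and 4 (13.3% and 26.7%). Of 29 vessel and pericyte genes the counts were 4 and 5 (13.8% and 17.2%), and of 27 pancreas and gut genes 1 and 5 (3.7% and 18.5%). Over all genes the shares were 22.7% higher and 20.2% lower, so none of these lists held a larger share of higher members. With 1 retina left out the lower ones were 3 to 7 for epidermis and cornea, 2 to 4 for erythrocytes and 2 to 5 for pancreas and gut. Myoglobin mb held 24.2 to 101 CPM at 72 hpl with a median of 63.9, against 134 to 301 CPM at 0 h with a median of 226 (log2 fold change −1.77, SE 0.38, adjusted p = 1.1e-04), and the tight junction gene cldn5b held 32.9 to 62.2 CPM at 72 hpl with a median of 43.7, against 0 to 4.55 CPM at 0 h with a median of 2.83 (log2 fold change 3.91, SE 0.41, adjusted p = 1.2e-11). Going the other way on the vessel and pericyte list, cdh5 held 26.2 to 45.5 CPM at 72 hpl, against 55.2 to 108 CPM at 0 h. Also lower were esama (17.7 to 36 CPM at 72 hpl, against 51.1 to 83.1 CPM at 0 h), plcb3 and rgs5a. The median log2 fold change of that list was −0.39.

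Within the time-course 72 hpl was also set against the times on either side of it, in the same fit. Against 36 hpl, 873 genes were higher at 72 hpl (6.68%) and 774 lower (5.92%). Against 5 dpl, 910 were higher (6.96%) and 855 lower (6.54%). One library of that group, 5 dpl replicate 2, held only 228611 counted reads, against 2042447 to 2958035 in the other 5, and without it 900 were higher and 939 lower. These contrasts share the 72 hpl retinas with the comparison above. After 3 days of continuous light the fish of the 5 dpl group had gone back to the ordinary daily light cycle. In the contrast with 5 dpl, elapsed time and the end of the continuous light therefore cannot be told apart. Of the precursor factors, 17 of 30 were higher at 72 than at 36 hpl and 1 lower, with insm1a at a log2 difference of 4.03 (adjusted p = 7.8e-17), atoh7 at 4.85 and foxn4 at 1.90. Photoreceptor transcription factors had 14 of 20 higher and 0 lower than at 36 hpl, prdm1a among them (2.20), chromatin genes 18 of 37 and 1, and Notch genes 14 of 33 and 2. Going the other way, 42 of 51 ribosome biogenesis genes and 21 of 40 gliosis genes were lower at 72 than at 36 hpl, stat3 among them (−0.75), as was ascl1a (−1.35). Of 46 replication genes only 2 were higher and 2 lower, and for pcna the difference was −0.32 (adjusted p = 0.25).

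Compared with 5 dpl, 36 of 51 mitosis genes were higher at 72 hpl and 0 lower, and 16 of 46 replication genes and 0. Of 30 chaperones 19 were higher and 0 lower, hsp70.3 among them at 4.82 (adjusted p = 1.3e-12), and gfap differed by 1.53. All 9 opsins, 17 of 19 rod genes and 17 of 22 cone genes were lower at 72 hpl than at 5 dpl, with log2 differences of −1.11 for rho and −3.09 for gnat2, and 1 rod gene was higher. Of 85 respiratory chain genes 32 were lower at 72 hpl than at 5 dpl (58 without 5 dpl replicate 2) and 0 higher, and of 35 glycolysis genes 13 and 0. Of the 2971 genes higher at 72 hpl than at 0 h, 18 were higher still at 5 dpl, 774 were lower at 5 dpl and 2179 did not differ at the threshold.

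Of the genes called higher over all retinas 98.6% had a positive change in each experiment taken alone, and of those called lower 99.0% a negative one, counting the sign only and with both experiments part of the call. With the experiments fitted apart, 1473 of the 2971 and 1218 of the 2643 were called in both. The change differed between the experiments for 102 genes (0.78%), a count that ran between 29 and 185 with 1 retina left out, lowest without 0 h replicate 3 and highest without 0 h replicate 5. The smallest interaction p belonged to armc1l, named for its armadillo repeats, the mitotic kinase plk1, the cryptochrome cry1bb and the retinol-binding gene rbp2a. No read of armc1l was counted at 0 h in experiment 2, where it was at least 33.9-fold higher at 72 hpl (floor of 3 reads over the 3 libraries, 0.699 CPM), while in experiment 1 its retinas held 16.9 to 18.7 CPM at 72 hpl and 5.11 to 8.09 CPM at 0 h (interaction adjusted p = 8.6e-05). For plk1 the retinas of experiment 2 held 108 to 120 CPM at 72 hpl and 2.49 to 8.68 CPM at 0 h, and those of experiment 1 held 74.6 to 78.5 CPM at 72 hpl and 29.7 to 33.6 CPM at 0 h. Its log2 fold change reached 4.21 in experiment 2, against 1.24 in experiment 1 (interaction adjusted p = 8.6e-05), a rise in both. For cry1bb it was 0.18 in experiment 2 and 2.23 in experiment 1 (adjusted p = 4.3e-04) and for rbp2a it was 3.79 in experiment 2 and −0.31 in experiment 1 (adjusted p = 0.0015). The chaperone hsp70.3 held 179 to 201 CPM at 72 hpl and 0 to 0.62 CPM at 0 h in experiment 2, and 83.9 to 90.1 CPM at 72 hpl and 3.78 to 6.26 CPM at 0 h in experiment 1 (adjusted p = 0.012). Of the mitosis list 1 gene, of the chaperones 4 and of the microglia list 3 differed in this way.

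**Figure D5:**
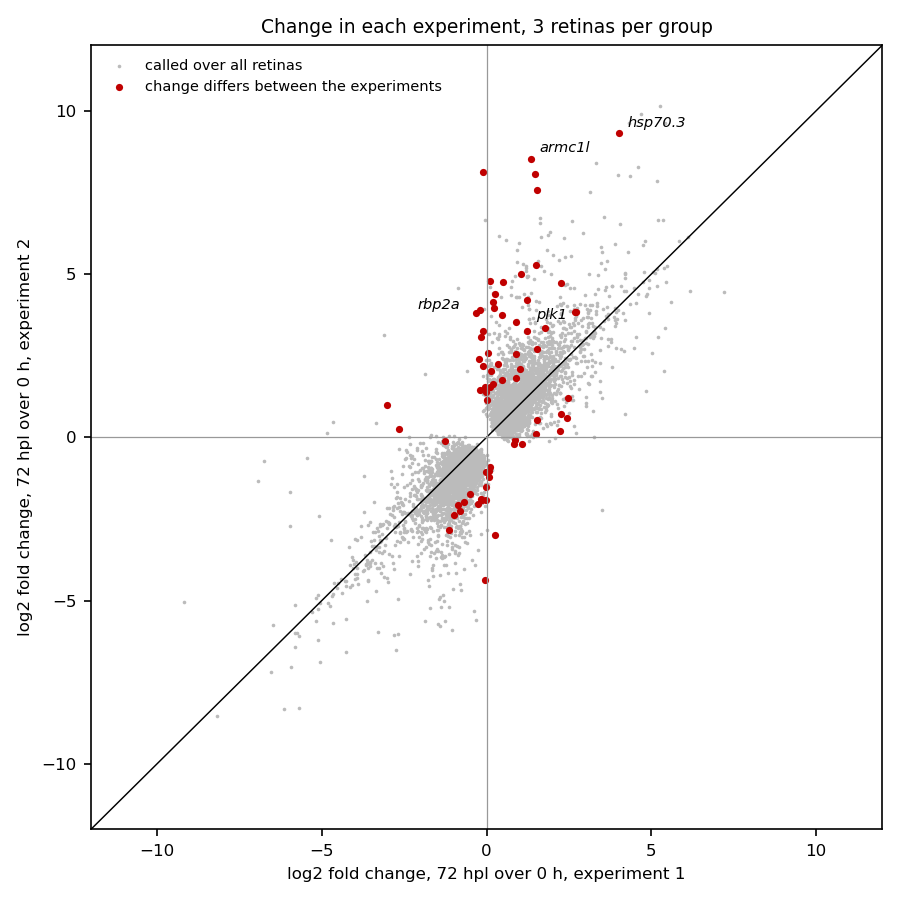
Log2 fold change of 72 hpl over 0 h in experiment 2 (vertical) against experiment 1 (horizontal) for the 5614 genes called over all retinas, 3 retinas per group and experiment, with 69 of the 102 genes whose change differed between the experiments in red, the others not being called over all retinas. Most points lie in the lower left and upper right, and armc1l and plk1 lie above the diagonal.

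Naïve retinas, from fish kept under the ordinary daily light cycle, have only pseudo-counts in the tables used, which are counts scaled by edgeR to a common library size, and are set beside the others without a test. They were assigned to neither experiment. Pseudo-counts summed over genes still differed, at 2497761 to 2707270 in naïve retinas, 1722570 to 2258728 at 0 h and 1720531 to 1974531 at 72 hpl. The values below were not corrected for these sums. The opsin rho had 2808 to 5656 pseudo-counts at 72 hpl, 39227 to 72082 at 0 h and 83921 to 102485 in naïve retinas. For per1b the values were 78.1 to 119.6 pseudo-counts at 72 hpl, 846 to 1174 at 0 h and 279 to 426 in naïve retinas, and for fabp7a 12736 to 20869 pseudo-counts at 72 hpl, 679.9 to 1664 at 0 h and 900.1 to 1367 in naïve retinas. The chaperone hsp70.3 had 157 to 377 pseudo-counts at 72 hpl, 0.147 to 11.6 at 0 h and 3.53 to 81.8 in naïve retinas, and insm1a 313 to 356 pseudo-counts at 72 hpl, 2.69 to 28.6 at 0 h and 11 to 24.9 in naïve retinas. For fabp7a, insm1a and hsp70.3 the naïve and 0 h ranges overlapped, with naïve hsp70.3 reaching 81.8 pseudo-counts. For rho the naïve range lay above that at 0 h, as the summed pseudo-counts did, and for per1b below it. In all 5 genes the 72 hpl range lay apart from both.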

How the data were processed

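Single retinas were sequenced by the 3′ method QuantSeq. The authors aligned reads with STAR to the zebrafish genome (build dR10), assigned them to genes with HTSeq, and deposited raw counts for 48 libraries and, for all 54, pseudo-counts, a signal that edgeR scales to a common library size; the software versions are not given in the sources used here. The deposited fold changes and p-values of the authors' own comparisons were not used. Gene names are those of the deposited tables, and strand use in counting is not given in the sources used here.

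Counts of the 48 libraries were fitted with edgeR 4.0.16 (R 4.3.3): trimmed-mean (TMM) scaling, at least 5 reads in at least 6 libraries (13075 of 15245 genes kept), a quasi-likelihood model with time and experiment, and Benjamini-Hochberg adjustment. CPM values use the TMM-scaled library sizes. Experiment membership came from the read file names in the study's submission sheet. On simulated data for 72 hpl against 0 h with 13075 genes, the test called 53% of genes changed 2-fold, 89% of those changed 4-fold and 7 of 12875 unchanged genes. Only 100 genes were changed 2-fold and 100 genes 4-fold there, with no difference between experiments simulated. In the retinas 2971 and 2643 genes were called, so the simulated rates need not hold for them. Each library is 1 fish, so p-values measure the spread between fish. Depth was 1111503 to 2541614 counted reads per library over the 12 retinas compared, and counting intervals and floors cover counting error only.

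The 57 gene lists and the members described were chosen with earlier results of these data known. Of 2184 list entries 1919 were found in the tables, 101 of them by a synonym. Genes were named if the study's text uses them, if they had the 12 largest or smallest fold changes (mean of at least 20 CPM in a group, no overlap) or the 6 largest gains or losses in CPM, if they were among the 4 smallest adjusted p in a list and direction or went against a list's majority, or if they had the 4 smallest interaction p. The genes nr2e3, mpx and rplp2, and those in the closing section's gene families, were chosen after their values were seen, as were the contrasts with 36 hpl and 5 dpl. Not every gene that the rule names is described. Alternatives were DESeq2 1.42.0, limma 3.58.1 on log2(pseudo-count + 1), other scalings and filters, each experiment alone, other blocks, a minimum fold and leaving out each retina. No sequences are shown because no genome of the files' build was used here.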

Additional observations from a re-analysis of the deposited data

Results flagged for a closer look

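Within each group of 6 retinas, a value was marked when 1 retina lay far from the other 5 by Dixon's ratio, which by chance marks about 1 group in 20. This marked 38 of 396 groups tested over the described genes, the list sums and depth.

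Replicate 5 of 0 h was the marked retina in 19 of them. It held 59177 summed CPM of opsins (others 32364 to 41655) and 77887 of cone phototransduction genes (46789 to 58048). Among single photoreceptor genes it held 9174 CPM of opn1sw1, 3522 of opn1lw1, 375 of opn1lw2, 3283 of opn1mw2, 6826 of gngt2b, 5179 of pdcb, 1001 of sagb and 1386 of crx. Outside photoreceptors it held the highest summed CPM of ganglion cell (3531), horizontal cell (3007) and splicing factor (10016) genes, and 1584 CPM of ndrg1a, 569 of kera, 742 of rpl13, 23 of nfil3, 22.4 of ctsc and 18 of foxn4.

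Replicate 2 of 0 h held 858 summed CPM of lens genes (others 63.9 to 134) and 540 of epidermis and cornea genes (349 to 409), with 68 CPM of ndufs8b and 6.47 of hes2.2. Replicate 4 of 0 h held 347 summed CPM of lymphocyte genes, 185 CPM of ccr7 and 4.96 of lepb. Replicate 6 of 0 h had the fewest counted reads, 1111503, and the highest gadd45gb.1 (1.86 CPM) and igfbp3 (27 CPM) of its group, and replicate 3 of 0 h held 19.4 CPM of nusap1.

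At 72 hpl, replicate 2 held 6216 summed CPM of proneural factors, 2096 of Notch genes, 194 CPM of hes2.2 and 101 of gngt2b, and the lowest serpinh1b (151 CPM, others 274 to 322). Replicate 4 held 506 summed CPM of muscle genes (187 to 270), replicate 3 held 13250 CPM of hsp90ab1 and replicate 1 held 1.44 CPM of opn1mw1.

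Of the 102 genes whose change at 72 hpl differed between the experiments by edgeR's interaction test, 8 are listed here. The genes armc1l, plk1, cry1bb and rbp2a were picked for the smallest interaction p and are not among the 140 described with full levels. The others, hsp70.3, mpeg1.1, hsp90b1 and hmgb2b, belonged to those 140. The fitted difference, experiment 2 minus experiment 1, was 7.23 for armc1l and 5.33 for hsp70.3 on the log2 scale. Both values depend on the prior count, since the 3 libraries at 0 h in experiment 2 held 0 reads of armc1l and 1 of hsp70.3. The difference was 4.13 for rbp2a, 3.29 for mpeg1.1, 2.99 for plk1, 1.18 for hsp90b1, 1.14 for hmgb2b and −2.03 for cry1bb. In hmgb2b and hsp90b1 the change was positive in each experiment, at 3.83 in experiment 2 and 2.72 in experiment 1 for hmgb2b, and at 3.84 in experiment 2 and 2.67 in experiment 1 for hsp90b1.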

How the results depend on the processing

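The counts of genes higher and lower at 72 hpl (2971 and 2643) stayed within 1.5 times under other scalings, filters, tests, blocks and single experiments. They were lowest with experiment 1 alone (2212 higher) or experiment 2 alone (2030 lower) and highest without 5 dpl replicate 2 (3075 higher) or with DESeq2 (3043 lower). With an absolute log2 fold change of at least 1 also required, 1629 and 1447 were called. Leaving out 1 retina gave 2745 to 2915 higher and 2370 to 2630 lower. With the replicate number as a block in place of experiment, 2928 were higher and 2584 lower. Same-numbered retinas correlated in their deviations from the group means at 0.0973 to 0.299, and at −0.0401 to 0.0636 once the experiment was taken out, so the numbers share the experiment and do not pair the fish. The 102 genes that differed between the experiments became 220 with the 12 libraries fitted alone and 29 to 185 with 1 retina left out. Of 378 called genes named by the rule, 293 kept their call under each alternative that tested them, 44 lost it in experiment 1 alone, 48 in experiment 2 alone and 4 under the replicate block. The log2 fold change reversed for cryba1a (0.135 in experiment 2 alone), crygs2 (0.480 in experiment 2 alone, 0.343 without 0 h replicate 2, and −4.101 to 0.343 with 1 retina left out) and rbp2a (−0.313 in experiment 1 alone); the cause was not tested. The share of calls that were higher was 49.4% with DESeq2 and 55.5% without an experiment block, against 52.9%. Depth limits genes with few reads: for armc1l the 0 h libraries of experiment 2 held 0 reads, so only a bound was given.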

Other observations

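Some gene families outside the lists were grouped by symbol after their values were seen, so their counts, by edgeR's quasi-likelihood test over all genes, are a description. All 10 voltage-gated calcium channel subunit genes (cacna) were lower at 72 hpl and 0 higher, with a median log2 fold change of −0.92. Of 12 calcium/calmodulin-dependent kinase genes (camk) 10 were lower and 0 higher (median −1.43), of 8 AMPA-type glutamate receptor genes (gria) 7 and 0 (−0.58), and of 14 voltage-gated sodium channel genes (scn) 7 and 0 (−0.60). Of 26 collagen genes 12 were lower and 2 higher (−0.76).

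Of 10 subunits of the Arp2/3 complex, which nucleates branched actin, 9 were higher at 72 hpl and 0 lower (median 1.03). Of 59 translation initiation factors (eif) 41 were higher and 2 lower (0.62), of 13 elongation factors (eef) 8 and 2 (0.74), of 10 RNA exosome subunits 7 and 0 (0.89) and of 27 Mediator subunits 14 and 2 (0.76). Over all genes the shares were 22.7% higher and 20.2% lower.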
